A study of Mesocricetus auratus with 24 samples.

Results

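Cytosine methylation was compared between 4 pools of Syrian hamster (Mesocricetus auratus) fetal cell colonies treated with benzo[a]pyrene (B[a]P) and 4 pools treated with vehicle, all collected on day 9 of culture. These 8 of the 24 libraries of the series were chosen by their titles and treatment labels. Each pool held about 60 colonies from a cell transformation assay run on cells that the labels assign to a single male fetus, with conditioned medium in place of an irradiated feeder layer. The treated pools received B[a]P at 5 µg/mL and the vehicle pools 0.2% DMSO. The other 16 libraries, all from B[a]P-treated colonies, were cultures of transformed or normal morphology grown for 19 to 25 days, and a transformed culture taken on day 48 in senescence or on day 94 after senescence had been bypassed. They were used here only to set the level of a window from values that the comparison did not use, and as reference levels. The series describes the pools as biological replicates. Since the labels name 1 male fetus for each, the p-values measure the spread between pools of colonies and do not extend to other animals, and a pool averages over whatever its colonies carry.

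In mammalian somatic cells most CpG dinucleotides are methylated where they are sparse, while CpG islands, dense clusters often found at gene starts, are mostly unmethylated. Maintenance methylation copies the pattern to the new strand at each division, so a change made in a founder cell can be passed on through its colony. B[a]P is a polycyclic aromatic hydrocarbon that activates the aryl hydrocarbon receptor and is oxidised by cytochrome P450 enzymes to a diol epoxide, which binds guanine in DNA. In the Syrian hamster assay such carcinogens give rise to colonies of altered morphology, and the pools ask what methylation looks like soon after exposure, before colonies are picked by morphology.

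Reduced representation bisulfite sequencing (RRBS) cuts the genome with an enzyme at CpG-containing sites and reads the fragment ends after unmethylated cytosines have been converted, so that the percent of reads retaining C at a position is its methylation level. The 8 libraries listed between 809562 and 1305370 CpG positions with at least 10 reads, strands apart, at a median of 21 to 32 reads. Summed coverage lay between 39193876 and 41673018 after B[a]P and between 30316233 and 38145508 after vehicle. All B[a]P pools were thus above all vehicle pools (exact two-sided permutation p = 0.02857, which is the minimum for 70 assignments, and 0.3714 when adjusted over 13 measures). The libraries sampled different positions. Of 2640495 positions listed in any of the 8, 54173 (2.05%) were listed in all of them. The measurements therefore ran over these shared positions and over windows of 1 kb, which can hold different positions in different libraries. The scaffold names and coordinates are those of the deposited tables, with a genome build that the sources used here do not give, and genes are not named.

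Average methylation did not separate the treatments. Over the 54173 shared positions it was 48.27%, 48.46%, 48.84% and 48.86% in B[a]P pools 1 to 4. In vehicle pools 1 to 4 it was 48.57%, 46.87%, 48.69% and 48.20%. Vehicle pool 2 was the lowest library, and the other 3 vehicle pools lay among or just below the B[a]P pools. The means were 48.61% ± 0.2914 after B[a]P and 48.08% ± 0.8356 after vehicle (SD, n = 4 each), and the gap of 0.5239 points did not pass (exact two-sided permutation p = 0.2857). Without vehicle pool 2 it was 0.2294 points.

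The shares of unmethylated and methylated positions overlapped too. Positions under 20% made up 39.06 to 42.88% of the shared positions in B[a]P pools and 39.36 to 45.75% in vehicle pools. Positions at 80% or more made up 35.01 to 40.17% and 35.31 to 39.40%. Between these bounds lay 16.95 to 25.93% after B[a]P and 14.85 to 25.32% after vehicle. Of 13 library measures compared, including these shares, the number of positions and the median coverage, none passed after adjustment (lowest adjusted p = 0.3714, exact permutation tests).

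**Figure D1:**
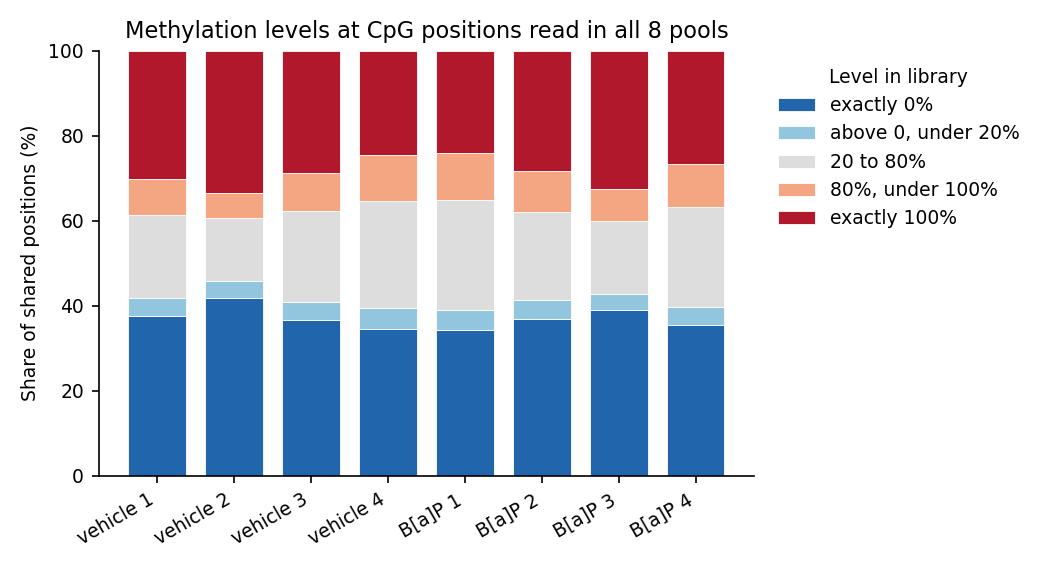
Share of the 54173 shared positions (%) at each level of methylation, 1 stacked bar per library, 4 vehicle pools on the left and 4 B[a]P pools on the right. Vehicle 2 and B[a]P 3 have the largest shares at exactly 0% or exactly 100%, and the 2 groups overlap in every class.

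Libraries differed from each other far more than the groups did. At a shared position, 2 vehicle pools differed on average by 15.5 to 18.4 points over the 6 possible pairs (mean 16.97). The 6 pairs of B[a]P pools differed by 14.71 to 16.9 points (mean 15.95). A vehicle and a B[a]P pool differed by 14.61 to 18.54 points over 16 pairs (mean 16.43). Pairs from different treatments were no further apart than pairs from the same treatment, since between minus within was -0.03639 points (exact two-sided permutation p = 0.5714).

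**Figure D2:**
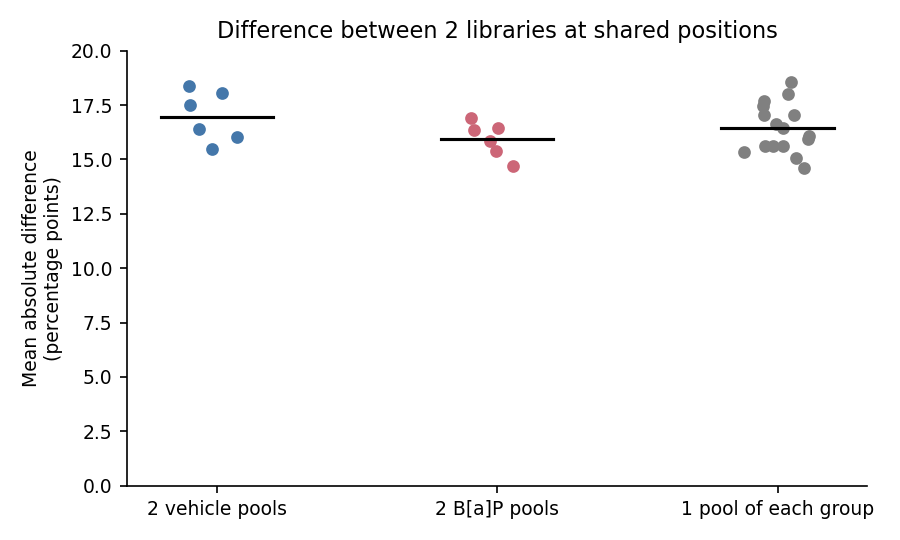
Mean absolute difference in methylation (percentage points) between 2 libraries over the shared positions, 1 point per pair of libraries, with the mean of each kind as a line. The pairs of 1 pool from each group, at 14.61 to 18.54, span the values of the pairs within a group.

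Single positions tended to read as all methylated or all unmethylated within a library, even where the 8 libraries together were intermediate. At the 31833 shared positions with pooled methylation of 5 to 95%, 46.54% of the values were exactly 0% or 100%. Independent reads drawn at each position's pooled level would give 2.107%. The share was 73.78% of values from 10 to 19 reads, 60.16% from 20 to 49, 44.12% from 50 to 99 and still 20.49% from 100 reads or more. The median dispersion of the position test, which is 1 for independent reads at a level shared by the pools of a treatment, was 19.9 at a median of 55 reads. Levels that truly differ between pools and reads copied from the same molecule both give such values and cannot be told apart in these tables, which carry no record of whether PCR copies had been removed.

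This all-or-none pattern was strongest in the libraries with the fewest positions. It held for 60.73% of values in vehicle pool 2, which listed 809562 positions, and for 54.99% in B[a]P pool 3, which listed 899322. In vehicle pools 1, 3 and 4 it held for 49.04%, 46.57% and 37.85%. In B[a]P pools 1, 2 and 4 it held for 36.61%, 45.45% and 41.09%. B[a]P pool 1, with the lowest share, listed the most positions, 1305370. The 2 libraries at the high end belong to different treatments, and the groups overlapped. A difference between treatments was not tested for this measure.

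Windows were then ordered by methylation level. A window counted as measured with 3 or more positions in every library, which held for 34005 of the 382924 windows with any position. So that the class did not rest on the values compared, each window was placed by its mean in the 16 libraries outside the pools. All 16 were B[a]P-treated and taken later, so the class is a level after exposure and not a starting level. In the 16271 windows under 20% elsewhere, the pools averaged 2.335% ± 0.07661 after B[a]P and 2.298% ± 0.1395 after vehicle. In the 7877 windows at 80% or more, they averaged 86.33% ± 0.2960 and 85.91% ± 0.7759 (SD, n = 4). Neither the unmethylated nor the highly methylated class passed (exact two-sided permutation p = 0.6857 and 0.4286).

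The intermediate classes had somewhat larger differences, again within the spread. Windows at 20 to 50% averaged 29.89% ± 0.4588 after B[a]P and 28.64% ± 1.651 after vehicle, 1.253 points apart. Vehicle pool 2 was lowest at 26.27%, and vehicle pools 1 and 3, at 29.76% and 29.77%, lay among the B[a]P pools, which ran from 29.46 to 30.53%. Windows at 50 to 80% averaged 64.31% ± 0.5646 and 63.21% ± 1.331, 1.103 points apart (exact two-sided permutation p = 0.2 and 0.1714, adjusted p = 0.4 for both over 4 classes). Without vehicle pool 2 these differences were 0.4441 and 0.5649 points.

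Placing the windows by the vehicle pools themselves gave another picture from the same values. All 4 classes then separated the groups (exact two-sided permutation p = 0.02857 each). B[a]P pools were higher by 0.5092 points under 20%, by 3.167 at 20 to 50% and by 1.79 at 50 to 80%, and the difference was -2.215 points at 80% or more. In that arrangement the vehicle values both choose the class and enter the difference, so a vehicle value that is low by error lowers the class and raises the difference. With classes from the mean of all 8 pools, the differences were 0.09078, 1.612, 0.9645 and 0.2254 points and none passed.

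**Figure D3:**
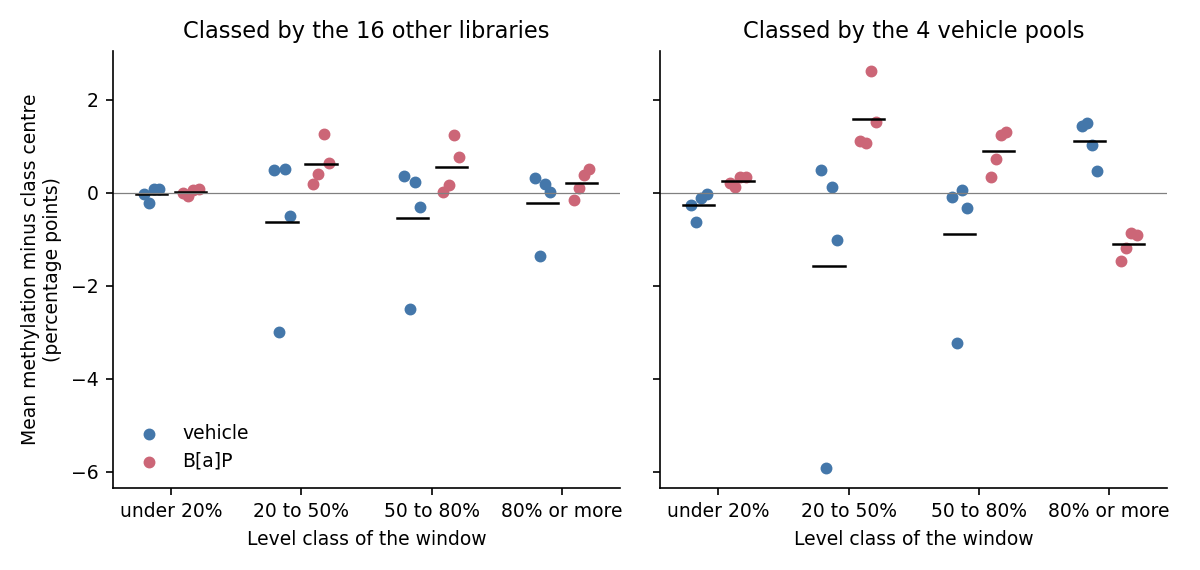
Mean methylation of each library in 4 level classes, as percentage points from the midpoint of the 2 group means, with points for libraries and lines for group means. With classes from the 16 other libraries (left) the groups overlap in each class, and with classes from the 4 vehicle pools (right) they separate and the sign turns at 80% or more.

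CpG density, counted as CpG positions measured per window with strands apart, ordered the windows by level in both groups. The sparsest quartile, with 3 to 7 positions, averaged 64.15% ± 0.3398 after B[a]P and 63.44% ± 0.9810 after vehicle. The densest quartile, with 22.5 to 121 positions (medians over libraries), averaged 4.821% ± 0.07454 and 4.746% ± 0.1622 (SD, n = 4). Dense windows were thus largely unmethylated in both treatments and sparse ones largely methylated. The differences between treatments were 0.7038, 0.6908, 0.2279 and 0.07465 points from the sparsest to the densest quartile, and none passed (exact two-sided permutation p of 0.1714 to 0.5714, adjusted p of 0.4 to 0.5714 over 4 quartiles). As with the level classes, a single quartile could not have passed adjustment. Without vehicle pool 2 the difference was -0.005979 points in the densest quartile and -0.0147 in the third.

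Level and density together gave no class that passed after adjustment. In the 7644 windows that were both densest and under 20% elsewhere, the pools averaged 1.418% ± 0.01992 after B[a]P and 1.397% ± 0.08919 after vehicle. The 177 densest windows at 80% or more elsewhere averaged 86.89% ± 0.5932 and 86.43% ± 1.070. The 3875 sparsest windows at 80% or more averaged 86.35% ± 0.1592 and 85.96% ± 0.8807 (SD, n = 4). Across the 16 combinations of level and density the smallest adjusted p was 0.64 (exact two-sided permutation tests). A single combination could not have passed adjustment over 16, even if fully separated. The reads were also shared out alike, with 20.23 to 23.28% of the coverage in measured windows of the densest quartile after B[a]P and 19.93 to 25.77% after vehicle.

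Tested 1 by 1, no window was called. A call needed an adjusted p under 0.05 and a difference between the means of 10 points or more, and 0 of 18421 tested windows (0.0%) met both in the quasi-binomial test (smallest adjusted p = 0.648). Before adjustment 1172 windows (6.36%) had a p under 0.05, of which 669 were higher after B[a]P and 503 lower. edgeR's quasi-likelihood test and limma on percent methylation also called 0, with 408 and 890 windows at an unadjusted p under 0.05. Without vehicle pool 1 the count was 1. That window, KB708191.1:5615001-5616000, was at 100% in each B[a]P pool and at 66.71%, 76.48% and 75.22% in vehicle pools 2 to 4. Vehicle pool 1 was at 96.23% there, and its adjusted p with all 8 libraries was 0.648.

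Large differences between group means occurred in many windows, mostly with overlapping pools. Of the tested windows, 5612 (30.5%) had group means at least 10 points apart, 3111 of them higher after B[a]P and 2501 lower. Means at least 20 points apart occurred in 1323 windows, and in 1075 of these the libraries of the groups still overlapped. The median difference over tested windows was 0.618 points, and the middle of the distribution, from the 10th to the 90th percentile, ran from -12.1 to 13.9 points.

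The groups did not overlap at 529 tested windows (2.87%), namely at 302 (1.64%) that were higher after B[a]P and at 227 (1.23%) that were lower. Complete separation has an exact two-sided permutation p of 0.02857, the minimum for 70 assignments. Labels unrelated to methylation would thus separate a share of windows of about that size. The number of windows without overlap therefore does not by itself show a difference between treatments, here or in the descriptions below. Over all 34005 measured windows, including those outside 5 to 95%, 412 (1.21%) were higher and 290 (0.853%) lower without overlap. By level in the 16 other libraries, 0.799% of the measured windows under 20% were higher and 0.4241% lower without overlap. At 20 to 50% the shares were 1.83% and 1.041%, at 50 to 80% 1.676% and 1.285%, and at 80% or more 1.396% and 1.219%. By density the higher ones made up 1.502% of the sparsest quartile and 0.9453% of the densest, and the lower ones 1.129% and 0.5333%. Higher windows outnumbered lower ones in each of these classes, and 52.7% of all tested windows had the higher mean after B[a]P. Vehicle pool 2 was the lowest of the 8 libraries in 19.27% of the tested windows and the highest in 13.45%.

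From the windows without overlap, those with the smallest unadjusted p and at least 5 positions in each library are described next, 8 in each direction; all had an adjusted p of 0.7517 in the quasi-binomial test and none passed. Among the higher ones, KB708244.1:3996001-3997000 was at 66.88%, 57.04%, 47.10% and 64.84% in vehicle pools 1 to 4. In B[a]P pools 1 to 4 it was at 97.71%, 87.5%, 90.2% and 93.82%, from 104 to 566 reads per library (each read counted once for each position it covers, here and below). The lowest B[a]P pool was well above the highest vehicle pool, and the means differed by 33.34 points, 92.31% ± 4.436 against 58.97% ± 8.978 (SD, n = 4). At KB708140.1:4099001-4100000 the vehicle pools were at 54.48%, 54.95%, 63.46% and 66.67% and the B[a]P pools at 82.46%, 84.98%, 83.06% and 78.65%. Pools of the same treatment lay close together there, with SDs of 2.65 points after B[a]P and 6.121 after vehicle.

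On APMT01214882.1, from 2001 to 3000, the vehicle pools were at 22.67%, 16.6%, 36.89% and 32.88%, and the B[a]P pools at 63.98%, 68.27%, 65.48% and 49.6%. The means were 61.83% ± 8.346 and 27.26% ± 9.290, the largest difference among the 8 higher windows at 34.57 points. KB708217.1:1804001-1805000 had vehicle values of 47.59 to 74.54% and B[a]P values of 82.59 to 96.2%. KB708169.1:2523001-2524000 had vehicle values of 43.99 to 79.49% and B[a]P values of 86.24 to 96.89%. In KB708134.1:2493001-2494000 B[a]P pools 1 to 3 were at 100% and B[a]P pool 4 at 92.15%, with vehicle pools at 60.2 to 88.09% and as few as 50 reads in a library.

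Of the 8 higher windows, 2 averaged under 10% in vehicle pools. KB708128.1:5259001-5260000, a dense window with 32 to 86 positions per library, was at 1.099%, 0.9204%, 3.025% and 7.07% in vehicle pools and at 11.19%, 9.13%, 14.43% and 11.16% in B[a]P pools, from 877 to 2825 reads. The gap between the highest vehicle and the lowest B[a]P pool was small, and the means differed by 8.449 points. In KB708187.1:2355001-2356000 the vehicle pools were at 3.656 to 8.405%, while the B[a]P pools ran from 9.443 to 57.59% with an SD of 20.88 points. In transformed colonies the 2 windows averaged 10.14% and 12.88%, and in normal colonies 12.23% and 11.23%. In the later cultures they averaged 19.61% and 41.13% in senescence and 39.81% and 45.2% after bypass. Single libraries varied, and senescent ones ran from 6.483 to 28.79% in the first window. These 2 windows do not stand for all 16 named. After bypass KB708162.1:14218001-14219000, a lower window, averaged 52.85%, near its vehicle mean of 49.4% and far from 14.08% after B[a]P. KB708132.1:8035001-8036000, also lower, averaged 29.98%, nearer its mean of 26.26% after B[a]P than its vehicle mean of 63.02%. A trend with time was not tested.

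Among the 8 lower windows, KB708162.1:14218001-14219000 was at 73.6%, 41.28%, 40.71% and 42.0% in vehicle pools 1 to 4. In B[a]P pools it was at 8.017%, 13.39%, 11.13% and 23.79%, from 665 to 1269 reads. Vehicle pool 1 stood above the other vehicle pools, which were themselves above all B[a]P pools. At KB708132.1:8035001-8036000 the vehicle pools were at 51.61%, 58.78%, 45.75% and 95.93% and the B[a]P pools at 33.87%, 24.67%, 18.17% and 28.32%. The difference, -36.76 points, was the largest in size among the 16 windows, and vehicle pool 4 was far from the other vehicle pools.

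Of the other 6 lower windows, 4 averaged over 80% in vehicle pools and 2 averaged under 50%. KB708440.1:106001-107000 was at 100% in each vehicle pool and at 87.2%, 85.31%, 89.73% and 79.49% in the B[a]P pools. KB708161.1:10334001-10335000 was also at 100% in each vehicle pool, with B[a]P pools at 94.03%, 74.02%, 99.5% and 97.71%, so that its difference of -8.685 points came mostly from B[a]P pool 2. KB708257.1:564001-565000 had vehicle values of 94.61 to 100% and B[a]P values of 62.76 to 91.23%. KB708209.1:7835001-7836000 had vehicle values of 85.02 to 96.67% and B[a]P values of 63.64 to 77.02%. At the low end, KB708304.1:122001-123000 had 15.79 to 40.48% after vehicle and 0.4444 to 6.716% after B[a]P. KB708230.1:4951001-4952000 had 5.211 to 16.69% after vehicle and was at 0% in B[a]P pools 1, 3 and 4.

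**Figure D4:**
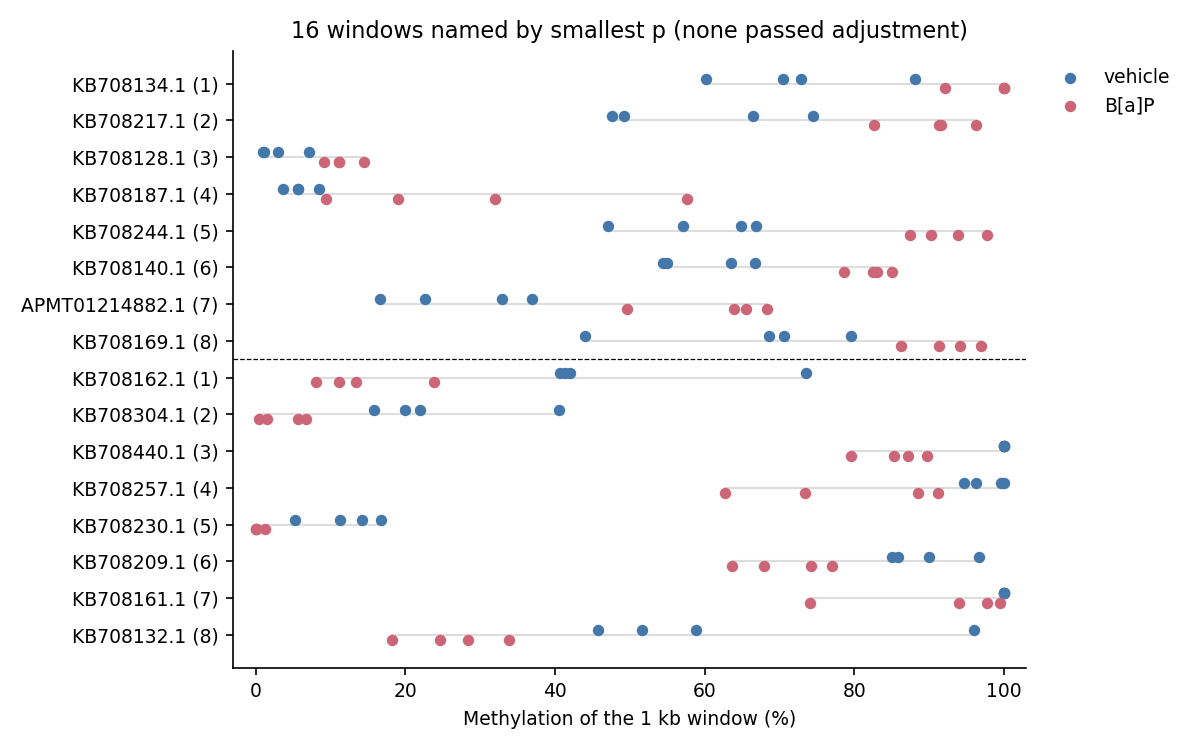
Methylation (%) of the 8 higher windows (above the dashed line) and the 8 lower windows (below it) in each of the 8 libraries, by scaffold, ordered by unadjusted p, each row with 4 vehicle and 4 B[a]P points. The groups do not overlap in any row, which is how the windows were chosen, and the width of the groups varies from 0 at KB708440.1 in vehicle pools to 22.58 points (SD) at KB708132.1 in vehicle pools.

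The named windows rest largely on different positions in different libraries. Of the 16, 11 held no position shared by all 8 libraries. KB708134.1:2493001-2494000 held 5 shared positions, all higher on average after B[a]P, and KB708209.1:7835001-7836000 held 5, of which 4 were lower. KB708162.1:14218001-14219000 held 2, both lower, and KB708440.1:106001-107000 held 4, of which 3 were lower. KB708304.1:122001-123000, a lower window, held 3, of which 1 was lower. At none of the shared positions in the 16 windows did the groups separate without overlap. Counting only shared positions over all windows, the numbers of windows without overlap were 78 higher and 53 lower. Fewer windows were tested in that setting, and their share is not given.

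Windows without overlap were also compared with values that did not choose them. The 291 higher windows with a level in the 16 other libraries averaged 68.74% after B[a]P, 48.61% after vehicle and 63.09% in the other libraries. Of these, 200 were closer to the B[a]P level and 91 to the vehicle level. The 215 lower windows averaged 53.47% after B[a]P, 73.97% after vehicle and 66.97% in the other libraries, with 144 closer to the vehicle level and 71 to the B[a]P level. The mean of the 16 other libraries, all exposed to B[a]P, thus lay nearer to the more methylated treatment in both sets, but normal colonies did not. They averaged 57.87% ± 4.298 in the higher set and 62.18% ± 3.790 in the lower set, just below the midpoints of the 2 treatments at 58.67% and 63.72%. Transformed colonies were at 62.19% and 66.79%, senescent libraries at 64.53% and 67.41%, and bypass libraries at 67.09% and 70.32%. Over all tested windows with such a level, the mean of the 16 other libraries was also higher than that of the pools, at 64.12% against 59.89%.

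Neighbouring windows did not share the difference. Next to the 302 higher windows, 41 tested windows had a median difference of 0.5826 points and 22 of them were higher. Next to the 227 lower windows, 28 had a median of -0.8582 points and 15 were lower. Over the 1339 pairs of adjacent tested windows, the correlation of the B[a]P minus vehicle difference was 0.00595, a description across windows of the same 8 libraries. KB708187.1:2355001-2356000 was an exception among the named windows, with a difference of 23.35 points in the window to its left.

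At single positions 0 of 31833 were called (0.0%) by the quasi-binomial test (smallest adjusted p = 0.186). Before adjustment 2960 (9.3%) had a p under 0.05, 1606 of them higher and 1354 lower. edgeR called 0, with 697 at an unadjusted p under 0.05. limma on percent methylation, added after these results were seen, called 2, with 1324 at an unadjusted p under 0.05. The groups did not overlap at 324 positions (1.02%) higher after B[a]P and 252 (0.792%) lower.

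The 2 positions called by limma on percent stood at opposite ends of the scale in the 2 treatments. At KB708161.1 position 15277643, reverse strand, the vehicle pools were at 0%, 0%, 0% and 9.009% and the B[a]P pools at 100%, 100%, 97.95% and 100%, from 27 to 146 reads. At KB708127.1 position 24338963, reverse strand, the vehicle pools were at 20%, 0%, 0% and 0% and the B[a]P pools at 100%, 100%, 98.57% and 100%, from 34 to 95 reads. Their adjusted p was 0.186 in the quasi-binomial test, 0.0312 and 0.0406 with limma on percent, and 1 with edgeR. Without squeezing of the dispersions it was 0.0653 and 0.25.

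The positions next to these did not separate the groups. The first had 2 measured neighbours on the same strand, 42 and 66 bases away, with B[a]P minus vehicle differences of 29.83 and -16.12 points and overlapping groups. The nearer one was at 100%, 100%, 0% and 1.77% in vehicle pools and at 100%, 100%, 49.66% and 71.43% in B[a]P pools. The second had 3 neighbours, 11, 28 and 48 bases away, with differences of 39.55, 56.6 and 18.39 points and overlapping groups. All 3 were thus higher on average after B[a]P. The nearest was at 0% in each vehicle pool and at 60.98%, 41.51%, 0% and 55.7% in B[a]P pools. In the other libraries the first position averaged 81.62% and the second 57.09%, with normal colonies at 71.76% and 22.21% and bypass libraries at 100% and 81.33%.

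All-or-none positions seldom split 4 against 4. At 18708 shared positions every library was at 10% or less or at 90% or more, which was low in all 8 at 13812 and high in all 8 at 3683. At 30 positions 4 libraries were high and 4 low. In 1 of these 30 the 4 high libraries were the B[a]P pools, and in 0 they were the vehicle pools. That 1 position is the one on KB708161.1; vehicle pool 1 was at 20% at the KB708127.1 position and so outside this count.

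The other 6 named positions were less complete. Among the higher ones, KB708374.1 position 1021882 had 29.41 to 68.48% after vehicle and 92.9 to 100% after B[a]P. KB708161.1 position 8564433, read 210 to 570 times per library, had 63.33 to 92.31% and 99.55 to 100%. Among the lower ones, KB708161.1 position 215704 was at 100% in each vehicle pool and at 4.255 to 76.74% in B[a]P pools. KB708145.1 position 7847932 was at 39.53 to 100% and at 0 to 2.273%, position 13856225 of the same scaffold at 98.4 to 100% and at 50 to 70.44%, and KB708180.1 position 4370412 at 68.89 to 100% and at 0 to 30.43%. Their adjusted p was 0.4909 for the first and 0.5302 for the others in the quasi-binomial test.

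The spread between pools did not differ by treatment beyond what the 8 libraries allow. Over the tested windows the median SD was 10.77 points among B[a]P pools and 11.83 among vehicle pools, or -1.058 points apart (exact two-sided permutation p = 0.4571). The SD was higher among B[a]P pools in 44.98% of windows and lower in 55.02%. By level, the median SD was 1.113 and 1.125 points under 20%, 12.33 and 13.22 at 20 to 50%, 13.16 and 14.73 at 50 to 80%, and 8.154 and 9.035 at 80% or more, for B[a]P and vehicle. Vehicle pool 2 was the highest or lowest library in 32.71% of the tested windows and B[a]P pool 3 in 27.66%, against 15.36 to 22.49% for the other 6. Without vehicle pool 2 the difference in spread was 0.723 points, the opposite sign.

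Read coverage by scaffold asks whether any large stretch of the genome was gained or lost in the pools. Of 248 scaffolds with at least 200 positions in every library, 0 (0.0%) differed in coverage by edgeR's quasi-likelihood test (smallest adjusted p = 0.906), and 12 had a p under 0.05 before adjustment. DESeq2 called 0 as well, with 14 at an unadjusted p under 0.05. The log2 ratio of B[a]P to vehicle ran from -0.25 to 0.20, with an SD over scaffolds of 0.05. The range narrowed with the number of positions, from -0.25 to 0.20 in the 83 smallest to -0.06 to 0.07 in the 83 scaffolds with the most positions. A loss of 1 copy in all cells of a diploid pool would halve the reads. That would give -1 or lower on this scale, since positions under 10 reads are not listed. Such a value lies outside the range of the 248 scaffolds, whereas a change carried by few colonies would lie nearer 0.

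The 3 scaffolds with the smallest p in the coverage test show the size of the variation. On KB708179.1 log2 coverage relative to the mean vehicle pool was 0.06 to 0.11 in B[a]P pools and -0.08 to 0.05 in vehicle pools. On KB708149.1 it was -0.08 to -0.04 and -0.03 to 0.03. On KB708291.1 it was -0.17 to -0.05 and -0.08 to 0.06, so the groups overlapped there. The log2 ratios were 0.09, -0.06 and -0.11, each with an adjusted p of 0.906 (edgeR). Coverage did not overlap between the groups at 5 scaffolds (2.02%) that were higher after B[a]P and at 3 (1.21%) that were lower.

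**Figure D5:**
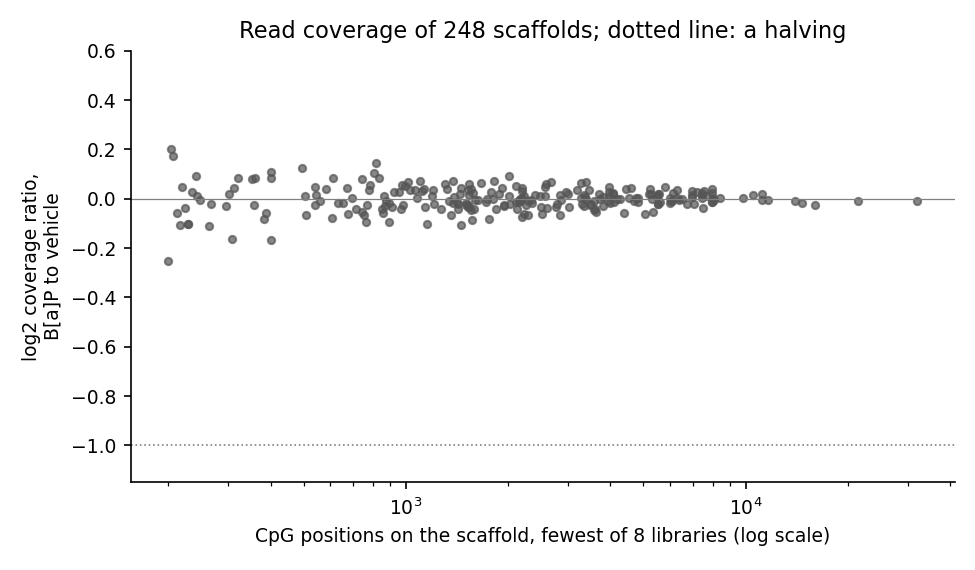
Log2 ratio of read coverage, B[a]P to vehicle pools, against the number of CpG positions on the scaffold (fewest of the 8 libraries, log scale), 1 point for each of 248 scaffolds. The points lie between -0.25 and 0.20, closest to 0 where positions are many, and none comes near the dotted line at -1.

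Mean methylation by scaffold, taken over all positions a library listed, gave 0 calls of 248 (0.0%) with limma (smallest adjusted p = 0.0826), and 3 scaffolds had an unadjusted p under 0.05. Its general direction rested on vehicle pool 2. The mean was higher after B[a]P on 226 scaffolds and lower on 22, with a median difference of 1.46 points, while without vehicle pool 2 it was higher on 80 and lower on 168, with a median of -0.50. Vehicle pool 2 averaged 32.74% over all its listed positions, where the B[a]P pools had 38.21 to 41.7% and the other vehicle pools 39.51 to 42.05%.

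The scaffold with the smallest p was KB708298.1, on which the libraries listed 217 to 447 positions. Vehicle pools were at 27.06%, 25.39%, 33.49% and 34.78%, and B[a]P pools at 39.63%, 38.41%, 41.92% and 36.50%, with no overlap. The means were 39.12% ± 2.269 and 30.18% ± 4.645 (SD, n = 4), 8.94 points apart (limma, adjusted p = 0.0826). Over the 9 positions of this scaffold shared by all 8 libraries the difference was -3.019 points, with overlapping groups, and over its 3 measured windows it averaged 0.4527 points. Without vehicle pool 3 the scaffold passed (limma, adjusted p = 0.0171), while over the other 7 sets that left out 1 library it did not. In the other B[a]P-exposed libraries it averaged 30.86% ± 9.887 in normal colonies, 34.87% ± 3.560 in transformed colonies, 36.89% ± 4.910 in senescence and 40.29% ± 5.625 after bypass (SD, n = 4).

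The next scaffolds were KB708394.1 and KB708423.1, both with an adjusted p of 0.956 (limma). On KB708394.1 the B[a]P pools ran from 35.97 to 43.65% and the vehicle pools from 29.02 to 39.32%. On KB708423.1 they ran from 28.04 to 35.70% and from 25.23 to 27.13%, without overlap. Methylation did not overlap between the groups at 3 of 248 scaffolds (1.21%), each higher after B[a]P, and at 0 (0.0%) in the other direction.

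Mitochondrial DNA, which is generally taken to carry little CpG methylation and so gives a reading of incomplete conversion and error, was listed at 10 to 29 positions per library. Its percent of C was 3.718 to 7.303% in B[a]P pools and 2.816 to 8.246% in vehicle pools. The groups overlapped (exact two-sided permutation p = 0.7429). Vehicle pool 3 was highest at 8.246% and vehicle pool 1 lowest at 2.816%. These values exceed the 1.4% measured in the densest low windows, so they are not used as a conversion rate.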

How the data were processed

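RRBS libraries of 8 pools, 4 per treatment, were grouped by the labels, and 16 further libraries of the series served for reference levels. The libraries were made with an RRBS kit, per the labels' protocols. The submitters' processing notes name methylKit 1.10.0 in R 3.6.1, Bismark 0.22.1 with Bowtie2 listed beside it, Trim Galore 0.5.0 and bcl2fastq 2.20.0.42, without their roles. Per the file headers, the authors' deposited tables give for each CpG and strand the coverage as a raw count and the percent of reads with C or T. No position under 10 reads is listed. Multiplying coverage by the fraction with C returned methylated reads, and 100% of these products were within 0.06 of a whole number where coverage was 1000 or less.

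Positions above each library's top 0.1% of coverage were left out of windows. Windows of 1 kb with at least 3 positions in each library and 5 to 95% pooled methylation were tested with a quasi-binomial logistic model on methylated and unmethylated reads, as were shared positions. Dispersions were squeezed as in limma within 10 deciles of pooled methylation, floored at 1, and F tests were adjusted by the Benjamini-Hochberg method. Library means were compared by exact permutation over 70 assignments. Scaffold coverage was tested with edgeR 4.0.16 (TMM) and scaffold methylation with limma 3.58.1, in R 4.3.3, and DESeq2 1.42.0 was an alternative. Python 3.11.15 was used for the rest. The scripts were tested on simulated data.

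The windows named are, among tested windows without overlap and with at least 5 positions in each library, the 8 higher and 8 lower with the smallest p. The positions named are the 4 higher and 4 lower without overlap and with the smallest p, and the scaffolds the 3 with the smallest p in each test. The comparison, these rules and the classes were chosen with earlier results of these data known. Alternatives were other read, position and window limits, other tests and scalings, weighting by reads, other classes, a replicate block, and each library left out in turn. Total depth beyond the listed positions is unknown, so intervals for single positions are not given. Gene lists, gene names and sequences were not used here, since a genome or annotation of the files' build was not used.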

Additional observations from a re-analysis of the deposited data

Results flagged for a closer look

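Among 32 groups of 4 values examined, 1 held a library far from the other 3, where chance gives about 1 in 20, or 1.6. In the second density quartile (7.5 to 11.5 positions per window) vehicle pool 2 had a mean methylation of 49.15%, below vehicle pools 1, 3 and 4 at 50.96%, 50.96% and 50.91%. The same library listed the fewest positions and had the most values at exactly 0% or 100%. The part these play in its mean was not tested.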

How the results depend on the processing

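The count of called windows was 0 in each alternative test, filter and window size, except 3 with the replicate block and 0 to 1 with each library left out in turn. Called positions were 0 in each, except 2 with limma on percent and 4551 with the replicate block. That last fit called many unchanged positions in simulated data, so it is not read as a result, and limma on percent with the block called 0. Same-numbered pools correlated at -0.01289 to 0.007848 in their deviations from the group means, and not every pool correlated best with its own number. Pools with different numbers correlated at -0.01308 to 0.0153. Such small values for all pairs cannot show whether the numbers pair the pools, since spread between libraries could hide a pairing. Called scaffolds in the methylation test were 1 with the replicate block (KB708298.1, limma, adjusted p = 0.008976) and 0 to 1 with a library left out, and in the coverage test 0 throughout. The difference over shared positions ran from 0.2294 to 1.547 points and did not pass under any alternative (0.5239 with the replicate block, paired exact permutation p = 0.375).

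With classes from the vehicle pools the differences were 0.5092, 3.167, 1.79 and -2.215 points, for the reason given with them. Windows without overlap numbered 141 higher and 100 lower at 20 reads or more per position, 124 and 98 at 5 positions or more, and 78 and 53 over shared positions. Fewer windows were tested in each of these settings. Shares of the tested windows are not given, so these counts do not show whether separation became more or less frequent. With a library left out they numbered 574 to 729 and 458 to 580, since 7 libraries separate more easily, and shares are not given there either. The smallest differences changed sign without vehicle pool 2: with a library left out they ran from -0.04057 to 0.07237 points under 20%, from -0.0147 to 0.4181 in the third density quartile and from -0.005979 to 0.0993 in the densest. The difference in spread ran from -2.746 to 0.723, negative in each case but without vehicle pool 2, with 3 pools set against 4. Between minus within pairs ran from -0.2604 to 0.2383, positive without vehicle pool 1, 3 or 4.

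Of 16 named windows 0 passed under any alternative run. Single positions and windows varied more than independent reads at a shared level would, and the part of read depth in this was not tested. The count of CpG dinucleotides in the genome and the gene lists were not run, since no genome of the files' build was used. Dispersion classes of equal width, limma on percent and the pairwise distances were added after seeing the data.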
